A study of Mus musculus with 2 samples.

Results

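The genes described here are 8 surface receptor genes grouped as T cell inhibitory receptors and the transcription factor gene Tox. They are Pdcd1, Lag3, Cd160, Btla, Ctla4, Tigit, Havcr2 and Cd244a with Tox, 9 genes of the 32285 listed, taken by symbol. Their unique molecular identifier counts (UMIs, 1 for each captured transcript) were read in spleen cells of 2 droplet single-cell libraries that profile transcript 5′ ends. In both groups the recipients were wild-type C57BL/6 mice that received tail skin at weeks 0 and 5, and spleens were taken 4 weeks after the second graft. The ALLO library followed grafts whose donors were of the strain C57BL/6-Tg(HLAA2.1)1Enge/J, mice that carry a human HLA-A2.1 transgene, and the SYN library followed grafts from wild-type C57BL/6 donors. By its title, the series is concerned with anti-HLA antibodies and Th17 cells, and the comparison made here is of these receptor genes between the 2 libraries and among cell types. Each group held 1 library (n = 1), and the labels used here do not say how many animals a library holds. No difference therefore has a replicate check, no test was made, and every interval is a 95% interval for counting error only.

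The ALLO library held 11185 barcodes and 39476214 UMIs and the SYN library 17777 barcodes and 45435231 UMIs. Barcodes with at least 1000 UMIs were kept, which were 9926 (88.7%) in ALLO and 11267 (63.4%) in SYN, with medians of 3304.5 and 3138 UMIs. The libraries shared 264 barcode sequences, 161 of them among kept barcodes of each library. Cells were gated on their own transcripts. A CD4 T cell had a UMI of Cd3d, Cd3e or Cd3g and of Cd4 and none of Cd8a, Cd8b1 or Cd79a, and was split by whether it held a UMI of Foxp3, the defining gene of regulatory T cells. CD8 T cells had Cd8b1 in place of Cd4. Natural killer (NK) cells had Ncr1 or Klrb1c without Cd3 genes, and B cells had at least 2 UMIs of Cd79a and Cd79b without Cd3 genes. The gates held 529 ALLO and 823 SYN Foxp3-negative CD4 T cells, 45 and 49 Foxp3-positive CD4 T cells, 559 and 555 CD8 T cells, 213 and 339 NK cells, and 6980 and 6822 B cells. The NK and B gates overlapped in 57 and 109 cells.

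As background, inhibitory receptors appear on T cells after activation and dampen signals from the antigen receptor or from costimulatory receptors. PD-1 (Pdcd1) and BTLA recruit phosphatases, CTLA-4 competes with CD28 for CD80 and CD86, LAG-3 binds MHC class II, and TIGIT competes with CD226 for poliovirus receptor family ligands. Several are normal features of regulatory T cells and of follicular helper T cells, which assist B cells in germinal centres. Several together with TOX are also known from T cells exposed to antigen for long periods.

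Reference sequence upstream of the start of 4 members is shown because these genes differed between the libraries in CD4 T or NK cells. Each run is the 250 bases before the RefSeq start on GRCm38.p6, 5′ to 3′ on the gene's strand. Pdcd1 lies at chr1:94052554-94052803 (minus strand), Ctla4 at chr1:60908775-60909024 (plus), Tigit at chr16:43664185-43664434 (minus) and Cd160 at chr3:96829352-96829601 (minus). Cd160 has a second RefSeq start, whose window at chr3:96814522-96814771 is not printed. Capitals mark matches on either strand to TGGAAA (NFAT-type), TGANTCA (AP-1-type) or TGTGGT (RUNX-type), with no match overlapping another.
Pdcd1: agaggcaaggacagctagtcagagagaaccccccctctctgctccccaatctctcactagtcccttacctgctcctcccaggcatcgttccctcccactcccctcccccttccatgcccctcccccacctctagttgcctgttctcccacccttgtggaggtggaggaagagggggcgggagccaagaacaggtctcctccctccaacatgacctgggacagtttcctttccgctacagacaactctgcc
Ctla4: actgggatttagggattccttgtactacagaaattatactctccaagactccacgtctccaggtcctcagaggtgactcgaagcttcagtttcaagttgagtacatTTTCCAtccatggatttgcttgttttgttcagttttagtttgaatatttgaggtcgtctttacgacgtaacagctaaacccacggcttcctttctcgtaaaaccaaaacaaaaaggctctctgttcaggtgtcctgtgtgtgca
Tigit: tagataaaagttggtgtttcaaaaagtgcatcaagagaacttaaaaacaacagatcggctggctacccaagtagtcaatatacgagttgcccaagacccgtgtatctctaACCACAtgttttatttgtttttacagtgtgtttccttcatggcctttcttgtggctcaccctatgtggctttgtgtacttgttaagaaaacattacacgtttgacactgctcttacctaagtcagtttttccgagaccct
Cd160: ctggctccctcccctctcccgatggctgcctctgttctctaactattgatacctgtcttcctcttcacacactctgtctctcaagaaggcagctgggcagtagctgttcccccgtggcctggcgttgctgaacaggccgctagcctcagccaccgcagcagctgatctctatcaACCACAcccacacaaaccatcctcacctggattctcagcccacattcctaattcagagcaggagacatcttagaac
Ctla4 held 1 TGGAAA match 144 bases before the start, in the reverse orientation. Tigit held 1 TGTGGT match at 140 bases and Cd160 1 at 76 bases, with 1 at 101 bases in the window of its other start. The Pdcd1 window held none of the 3 motifs. Of 32851 RefSeq promoters of this length, 18.6% held TGGAAA, 6.75% TGANTCA and 14.0% TGTGGT. A match is a stretch of letters and not a measured binding site. RefSeq promoters were matched for 7 of the 9 members, all except Lag3 and Tox.

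The members differed in the gate where they were highest among the 5, and the highest gate was the same in both libraries for most members. Levels are UMIs scaled by the total UMIs of the gate (CPM), and order is read within a gene. Ctla4 was highest in Foxp3-positive CD4 T cells, at 394 CPM (320 to 480) in ALLO and 349 CPM (276 to 435) in SYN. Foxp3-negative CD4 T cells came next at 53.6 and 26.2 CPM, with intervals apart from both neighbours. Tigit followed the same order at the top, at 326 and 115 CPM in Foxp3-positive cells. Foxp3-negative CD4 T cells (25.9 and 11.8 CPM) and NK cells (33.2 and 28.1 CPM) were not separated for Tigit in the ALLO library.

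Tox, which encodes a nuclear factor of T cell development and of long-stimulated T cells, was ordered in the same way in both libraries. It stood at 197 and 132 CPM in Foxp3-positive CD4 T cells, at 103 and 77.1 CPM in Foxp3-negative CD4 T cells and at 38.2 and 53.1 CPM in CD8 T cells. Each of these steps had separate intervals in both libraries, while CD8 T and NK cells (38.1 and 47.4 CPM) overlapped. Among the 5 gates Pdcd1 was highest in CD4 T cells, with 59.9 and 23.2 CPM in Foxp3-negative and 88.4 and 53.0 CPM in Foxp3-positive cells. The intervals of these gates overlapped in both libraries, and both lay above CD8 T cells, at 1.39 and 6.09 CPM. Gamma delta T cells, gated on Trdc outside the 5 gates, stood at 46.4 CPM (25.4 to 77.8) and 43.2 CPM (22.3 to 75.5) for Pdcd1, with 8 of 71 and 7 of 65 cells positive, and overlapped Foxp3-negative CD4 T cells in both libraries. NK cells held no UMI of Pdcd1, in 0 of 213 ALLO and 0 of 339 SYN cells, for which a limit of 3 counts allows shares of cells with a UMI of up to 1.41% and 0.885%.

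Btla, whose protein binds HVEM, was highest in B cells in both libraries, at 174 CPM (168 to 179) in ALLO and 192 CPM (187 to 198) in SYN. A UMI of Btla was present in 43.2% and 42.8% of B cells. Cd160, another HVEM-binding receptor, was highest in NK cells among the 5 gates, at 132 and 80.8 CPM, followed by CD8 T cells at 50.3 and 43.4 CPM and Foxp3-negative CD4 T cells at 17.9 and 8.83 CPM. Gamma delta T cells stood above the NK gate for Cd160, at 282 CPM (225 to 348) and 259 CPM (203 to 327) in 71 and 65 cells. The NK gate includes cells that are also in the B gate. Its 156 and 230 cells outside the B gate stood at 199 and 112 CPM for Cd160, with no interval computed. Cd244a, the receptor for CD48, was highest in NK cells among the 5 gates, at 107 and 126 CPM, with a UMI in 30.0% and 32.4% of them. Monocytes or macrophages were at 110 CPM (35.6 to 256) and 155 CPM (106 to 218) for Cd244a, and SYN conventional dendritic cells at 135 CPM (73.7 to 226), with intervals that overlapped those of NK cells.

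Havcr2, which encodes TIM-3, was not detected in Foxp3-negative CD4 T cells, in 0 of 529 and 0 of 823 cells, for which the same limit of 3 counts allows shares of cells with a UMI of up to 0.567% and 0.365%. Its highest levels were outside lymphocytes. Conventional dendritic cells held 8 and 21 UMIs (208 and 202 CPM) in 10 and 15 cells, and monocytes or macrophages 7 and 23 UMIs (153 and 111 CPM) in 17 and 45 cells. Lag3 was also read in dendritic cells of the SYN library, with 19 UMIs in the 15 cells of the conventional gate (183 CPM) and 18 UMIs in the 11 cells of the plasmacytoid gate (287 CPM). These gates overlapped, and 16 of the UMIs lay in 6 cells that both held. In ALLO the gates held 10 and 2 cells, and the same 3 Lag3 UMIs, in 1 cell, were in both. The gates left out many barcodes with a Cd3 gene. Barcodes with a Cd3 gene and Cd79a, a B cell gene, held 16.9% of the ALLO and 23.8% of the SYN Pdcd1 UMIs of kept barcodes, and 31.3% and 23.1% of the Lag3 UMIs. Btla stood at 90.5 and 114 CPM in them, between Foxp3-negative CD4 T cells (48.9 and 51.8 CPM) and B cells. Whether they are T cells or mixtures with B cells was not tested. T cell barcodes with no UMI of Cd4, Cd8a or Cd8b1 held 31.0% and 33.7% of the Cd160 UMIs.

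**Figure D1:**
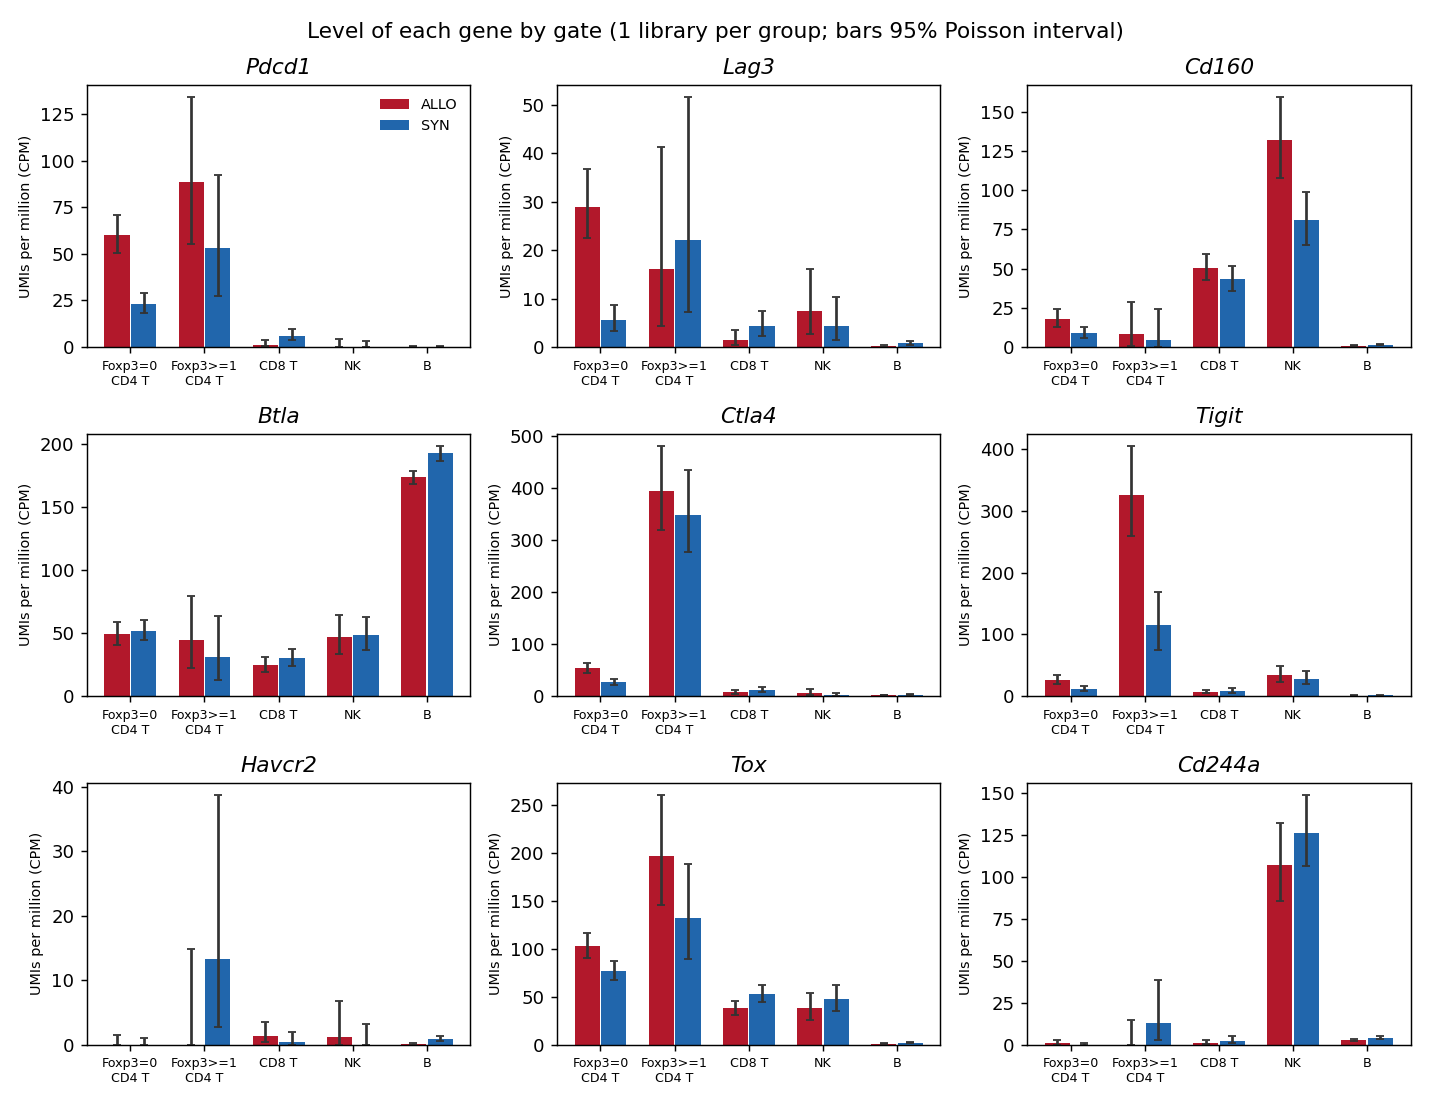
Level of each of the 9 genes in CPM (linear axis from 0, own scale per gene) in the 5 gates, ALLO in red and SYN in blue; bars are 1 library each and error bars 95% Poisson intervals. Ctla4 and Tigit peak in Foxp3-positive CD4 T cells, Btla in B cells, and Cd160 and Cd244a in NK cells in both libraries.

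Foxp3-negative CD4 T cells of the ALLO library carried higher levels of 5 of the 7 members that could be measured. Lag3, Pdcd1, Tigit, Ctla4 and Cd160 were each at least 1.5-fold higher than in SYN, Tox was 1.33-fold higher, and Btla was close to level. No member was at least 1.5-fold lower. A member counted as measured with at least 20 UMIs over both libraries. Of 9604 genes measured in this gate, 7.82% were at least 1.5-fold higher in ALLO and 4.37% at least 1.5-fold lower. The median log2 ratio was 1.03 over the 7 members and 0.02 over all genes.

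Lag3, an inhibitory receptor for MHC class II, had 68 UMIs in 35 of 529 ALLO cells and 19 UMIs in 11 of 823 SYN cells. These are 28.9 CPM (22.5 to 36.7) and 5.59 CPM (3.37 to 8.73), a ratio of 5.17 (3.07 to 9.11). Pdcd1 had 141 UMIs in 48 ALLO cells and 79 UMIs in 45 SYN cells, a ratio of 2.58 (1.94 to 3.44). Its share of positive cells was 9.07% and 5.47%, beside 0.0860% and 0.0880% in B cells, which held 8 and 6 Pdcd1 UMIs. Median depths were 3177 and 3002 UMIs in B cells against 4192 and 4083 in Foxp3-negative CD4 T cells. The positive ALLO cells also held more Pdcd1 each, at a mean of 2.94 UMIs per positive cell against 1.76, and 1 ALLO cell alone held 20 of the 141 UMIs.

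Ctla4 had 126 UMIs in 59 ALLO cells and 89 in 56 SYN cells, a ratio of 2.05 (1.55 to 2.71). Tigit had 61 UMIs in 30 ALLO cells and 40 in 23 SYN cells, a ratio of 2.20 (1.45 to 3.37). Cd160 had 42 UMIs in 23 ALLO cells and 30 in 13 SYN cells, a ratio of 2.02 (1.24 to 3.35). All 3 intervals lay above 1. Tox, with 242 and 262 UMIs, was at 103 CPM (90.3 to 117) against 77.1 CPM (68.0 to 87.0), a ratio of 1.33 (1.12 to 1.60). Btla, with 115 and 176 UMIs, had a ratio of 0.944 (0.740 to 1.20). Cd244a had 2 UMIs in ALLO and none in SYN.

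**Figure D2:**
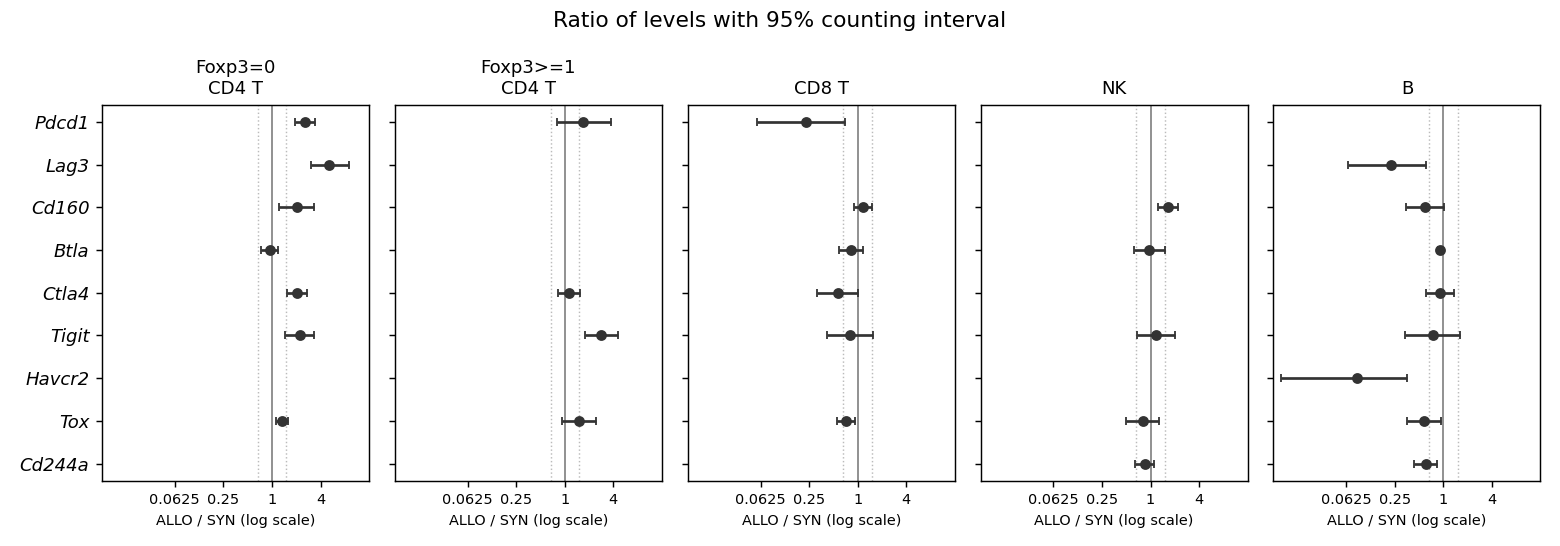
Ratio of the ALLO to the SYN level (log axis) for each measured gene in the 5 gates, with 95% counting intervals; dotted lines mark 1.5-fold, and genes under 20 UMIs have no point. Pdcd1 and Lag3 lie right of 1 in Foxp3-negative CD4 T cells, at 2.58 and 5.17, while Pdcd1 lies left of 1 in CD8 T cells, at 0.228.

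The sum over a gate mixes cells in different states. A cell was called memory-marked if, after thinning to 1000 UMIs, it held a UMI of S100a4, Ccl5, Cxcr3, Cxcr6, Ahnak, Itgb1 or Lgals1. Memory-marked cells were 205 of 529 (38.8%) in ALLO and 214 of 823 (26.0%) in SYN. Within them Pdcd1 was at 132 and 50.6 CPM, a ratio of 2.61 (1.83 to 3.78), and Lag3 at 58.9 and 13.8 CPM, a ratio of 4.27 (2.26 to 8.77). Ctla4 had a ratio of 1.94 (1.34 to 2.85), Tigit of 1.66 (1.06 to 2.65) and Tox of 1.41 (1.09 to 1.85). Cd160 had a ratio of 1.14 (0.648 to 2.02) there, so 4 of 7 members stayed at least 1.5-fold higher.

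Markers of other cells and states also differed in this gate. Summed NK genes (Ncr1, Klrb1c, Klra8, Gzma, Prf1) stood at 139 CPM in ALLO and 32.4 CPM in SYN, with 5 of 5 genes higher and 122 of the 327 ALLO UMIs in 1 cell. Without the cells holding any of them, the ratios were 5.31 for Lag3, 2.66 for Pdcd1 and 2.43 for Cd160. Genes of dividing cells (Mki67, Top2a, Birc5) stood at 174 and 49.7 CPM, 3 of 3 higher. Without cells holding them, Pdcd1 had a ratio of 1.93 (1.41 to 2.65) and Lag3 of 4.46 (2.59 to 7.99). Summed B cell genes were at 317 and 296 CPM and myeloid genes at 83.8 and 98.0 CPM, with Cd14 and Clec4a2 at 0 in both libraries. Red cell genes (52.7 and 2.65 CPM, 116 of 124 ALLO UMIs in 1 cell) and neutrophil genes (5.53 and 123 CPM, 410 of 419 SYN UMIs in 1 cell) differed through single cells, and their part in the results was not tested.

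Cells with genes linked to regulatory T cells were also taken out. Ikzf2, which encodes Helios, was at 63.8 and 32.4 CPM in this gate, which by its definition holds no Foxp3 UMI. A regulatory T cell whose Foxp3 transcripts were not captured would also fall in this gate, and their number was not tested. After cells with a UMI of Il2ra or Ikzf2 were removed, the Ctla4 ratio was 1.12 (0.731 to 1.69) and the Tox ratio 1.06 (0.860 to 1.31), both with intervals across 1. The Cd160 ratio became 4.00 (1.87 to 9.30), on 26 and 10 UMIs. Pdcd1 at 2.28 (1.53 to 3.42) and Lag3 at 3.30 (1.70 to 6.74) kept intervals above 1, and Tigit at 1.65 (0.945 to 2.90) did not.

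Foxp3-positive CD4 T cells were few, and 2 of their 4 measured members were at least 1.5-fold higher in ALLO, beside 15.4% of 3718 genes in that gate (13.7% lower). Tigit had 81 UMIs in 17 of 45 ALLO cells and 26 UMIs in 12 of 49 SYN cells, a ratio of 2.84 (1.80 to 4.60). Pdcd1 had 22 and 12 UMIs, a ratio of 1.67 (0.791 to 3.70), with 9 of the 22 and 8 of the 12 UMIs in 1 cell each. When cells with a UMI of Cd79b or Ms4a1 were left out, the ratios were 8.56 (3.91 to 22.2) for Tigit, on 61 and 7 UMIs, and 9.34 (2.25 to 82.7) for Pdcd1, on 19 and 2 UMIs. With no Cd4 UMI asked for they were 1.83 (1.33 to 2.55) and 1.11 (0.635 to 1.95). Ctla4, a constitutive gene of regulatory T cells, had 98 and 79 UMIs in 29 and 32 cells, a ratio of 1.13 (0.831 to 1.54). Tox had a ratio of 1.49 (0.926 to 2.43). Dividing-cell genes were at 1270 and 481 CPM in this gate, with at most 95 of 316 and 103 of 109 UMIs in 1 cell. An alternative left out the cells with a UMI of these genes. Across all alternatives the ratio ran from 1.83 to 8.56 for Tigit and from 0.947 to 1.29 for Ctla4. A cause was not tested.

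In CD8 T cells Pdcd1 was lower in the ALLO library. None of 6 measured members was at least 1.5-fold higher in ALLO and 2 were at least 1.5-fold lower, beside 4.51% and 6.35% of 9446 genes. Pdcd1 had 4 UMIs in 3 of 559 ALLO cells and 17 UMIs in 12 of 555 SYN cells, a ratio of 0.228 (0.0558 to 0.698). Ctla4 had 20 and 34 UMIs, a ratio of 0.570 (0.311 to 1.02) whose interval reached past 1. Tox had 110 UMIs in 83 cells and 148 UMIs in 116 cells, a ratio of 0.720 (0.557 to 0.927) that is under 1.5-fold. The intervals of Cd160 at 1.16 (0.905 to 1.49), Btla at 0.828 (0.595 to 1.15) and Tigit at 0.800 (0.412 to 1.54) crossed 1. Lag3, with 4 and 12 UMIs, was under the minimum. NK genes stood at 360 and 137 CPM in this gate and dividing-cell genes at 80.9 and 111 CPM. Alternatives left out the cells with a UMI of the NK genes or of the dividing-cell genes. Across all alternatives 80 of 80 single-gene ratios of this gate stayed within the counting interval of the main value. Pdcd1 had a value under 8 alternatives and Tox under 15, and a cause was not tested.

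In NK cells Cd160 was the only 1 of 5 measured members at least 1.5-fold higher in ALLO, beside 6.11% of 8132 genes (9.57% lower). It had 107 UMIs in 55 of 213 ALLO cells and 92 UMIs in 55 of 339 SYN cells, a ratio of 1.63 (1.22 to 2.18). After thinning each cell to 1000 UMIs the ratio was 1.35 (0.728 to 2.47). Cd244a had 87 and 144 UMIs, a ratio of 0.847 (0.641 to 1.11). Tigit had a ratio of 1.18 (0.681 to 2.04) and Tox of 0.804 (0.500 to 1.27). Btla had 38 and 55 UMIs, a ratio of 0.968 (0.623 to 1.49), and 35 and 51 of these UMIs lay in cells that are also in the B gate. Summed B cell genes stood at 10729 and 10512 CPM in the NK gate, which overlaps the B gate.

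In B cells no member was at least 1.5-fold higher in ALLO and 5 of 8 were at least 1.5-fold lower, beside 2.86% and 5.06% of 12453 genes. The 5 were genes at or below 4.23 CPM in either library. Lag3 had 5 and 20 UMIs, a ratio of 0.225 (0.0659 to 0.617), and Havcr2 2 and 21 UMIs, a ratio of 0.0856 (0.00973 to 0.350). In SYN, 4 of the Lag3 UMIs lay in 2 cells that were also in the plasmacytoid dendritic gate, and 5 of the Havcr2 UMIs in 2 cells that were also in the conventional dendritic gate. Cd244a had 66 and 98 UMIs, Tox 29 and 45, and Cd160 24 and 36. The Cd160 ratio of 0.599 had an interval across 1 (0.342 to 1.03). In the same gate myeloid genes stood at 264 and 355 CPM, neutrophil genes at 3.99 and 473 CPM and NK genes at 60.1 and 82.8 CPM, and their part was not tested. Btla, the member that B cells carry at a high level, had 4474 and 4459 UMIs, a ratio of 0.901 (0.865 to 0.940).

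Members were found together in single cells more often in the ALLO than in the SYN Foxp3-negative CD4 T cells. The levels of several members were also higher in these ALLO cells. Whether co-detection exceeds what those levels alone would give was not tested. Of Foxp3-negative CD4 T cells, 98 of 529 (18.5%) in ALLO and 88 of 823 (10.7%) in SYN held UMIs of at least 2 members, a ratio of 1.73 (1.29 to 2.34). At least 3 members were found in 50 (9.45%) and 29 (3.52%) cells, a ratio of 2.68 (1.66 to 4.40), and 5 or more in 6 and 2 cells. With each cell thinned to 1000 UMIs, at least 2 members were found in 26 (4.91%) and 20 (2.43%) cells, a ratio of 2.02 (1.09 to 3.82). The same thinned share in B cells was 0.172% and 0.293%. Thinning draws UMIs at random, and 3 other draws gave ratios of 2.01 (1.02 to 4.04), 1.88 (0.981 to 3.66) and 2.53 (1.31 to 5.04), 1 of them with an interval across 1. At least 3 members were found in 11 and 0 thinned cells, and in 4 to 9 and 0 to 2 cells in the other draws. Without cells of the dividing genes the ratio was 1.63 (0.833 to 3.20), and within memory-marked cells it was 1.61 (0.760 to 3.51), both with intervals across 1.

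CD8 T cells held at least 2 members in 52 of 559 (9.30%) and 65 of 555 (11.7%) cells, a ratio of 0.794 (0.541 to 1.16). After thinning these were 3 and 4 cells, too few for a direction. In Foxp3-positive CD4 T cells at least 2 members were found in 26 of 45 and 27 of 49 cells. At least 3 were found in 16 and 9 of these cells.

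**Figure D3:**
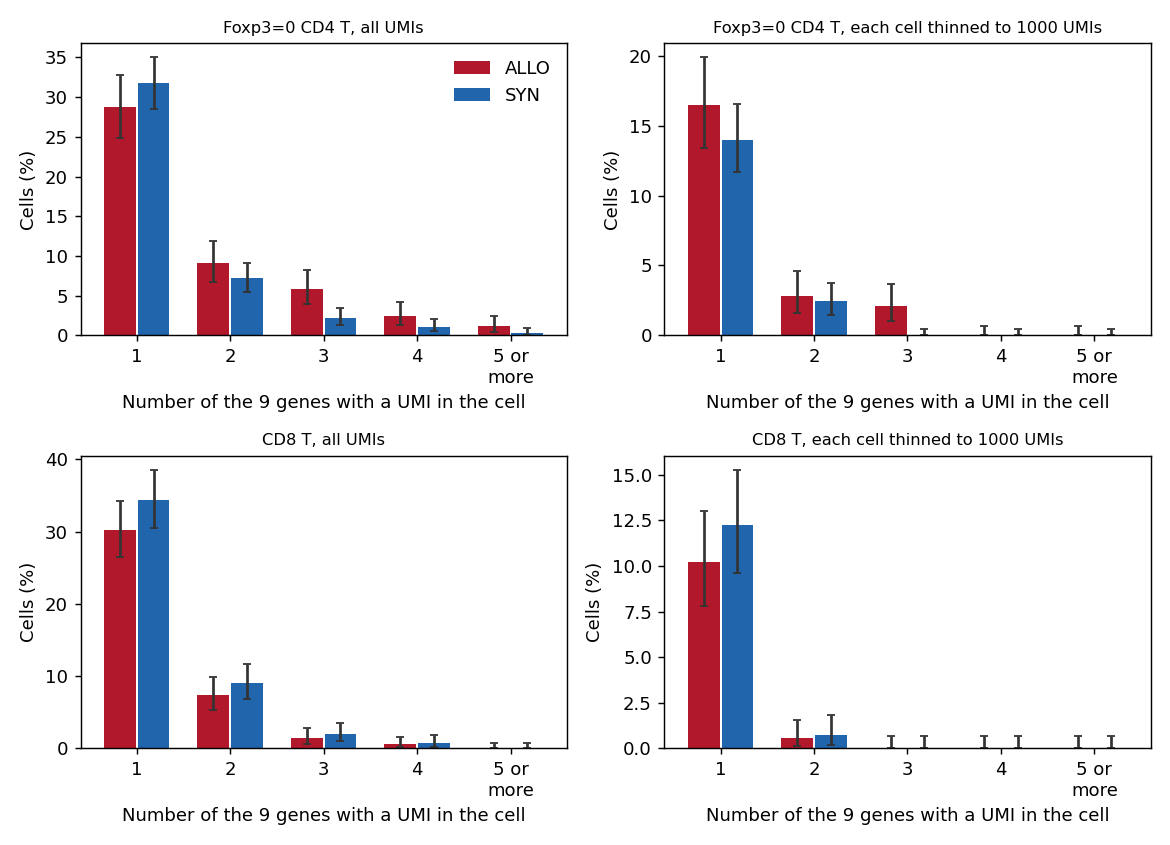
Percent of Foxp3-negative CD4 T cells (top) and CD8 T cells (bottom) with UMIs of 1, 2, 3, 4 or 5 or more of the 9 genes, from all UMIs (left) and after thinning to 1000 UMIs (right), with 95% Clopper-Pearson intervals. In CD4 T cells the ALLO bars stand above the SYN bars from 2 genes up before thinning, and in CD8 T cells they do not.

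The pairs that were found together differed by gene. In ALLO CD4 T cells, 20 of 35 Lag3-positive cells (57.1%) also held Ctla4, against 39 of 494 (7.89%) cells without Lag3. Of the same 35 cells 27 (77.1%) held Tox, against 112 of 494 (22.7%). After thinning to 1000 UMIs these were 2 of 13 (15.4%, interval 1.92 to 45.4) against 4.07% (2.54 to 6.15) for Ctla4 and 4 of 13 (30.8%, interval 9.09 to 61.4) against 8.14% (5.93 to 10.8) for Tox, with overlapping intervals. In SYN, 3 of 11 Lag3-positive cells held Ctla4 and 6 of 11 held Tox. Cells positive for Lag3, Ctla4 and Tox together were 18 of 529 (3.40%, interval 2.03 to 5.32) in ALLO and 1 of 823 (0.122%, interval 0.00308 to 0.675) in SYN. These 3 alone were the most frequent exact set of 3 members in ALLO, in 9 cells. Combinations of 3 members were not planned and were counted without thinning, so they are a description.

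Pdcd1 and Tigit formed another frequent pair in the unthinned counts. Tigit was found in 14 of 48 Pdcd1-positive ALLO cells (29.2%) against 16 of 481 (3.33%) without Pdcd1, and in 7 of 45 (15.6%) against 16 of 778 (2.06%) in SYN. The intervals of the libraries overlapped, at 17.0 to 44.1% and 6.49 to 29.5%. Tox was found in 26 of 48 Pdcd1-positive cells in ALLO and 26 of 45 in SYN. The combination of Pdcd1, Ctla4 and Tox was found in 6 ALLO and 12 SYN cells. That of Pdcd1, Lag3 and Tox was found in 12 and 5 cells, and that of Pdcd1, Tigit and Tox in 10 and 4. Of the 23 Cd160-positive ALLO cells 3 held Pdcd1 and 6 held Tox, beside 45 and 133 of the 506 cells without Cd160. In SYN, 2 of 13 Cd160-positive cells held Pdcd1, 2 held Lag3 and 3 held Tox, beside 43, 9 and 175 of 810. Btla-positive ALLO cells held Ctla4 in 10 of 88 (11.4%) and Tigit in 5 of 88 (5.68%), close to the 11.1% and 5.67% of cells without Btla. Among Cd160-positive cells, 9 of 23 in ALLO and 5 of 13 in SYN held a UMI of the NK genes, against 29 of 279 and 50 of 474 cells with none of the 9 members. Deeper cells hold more of every gene, and Lag3-positive ALLO cells had a median of 4627 UMIs against 4130.5 in the rest.

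**Figure D4:**
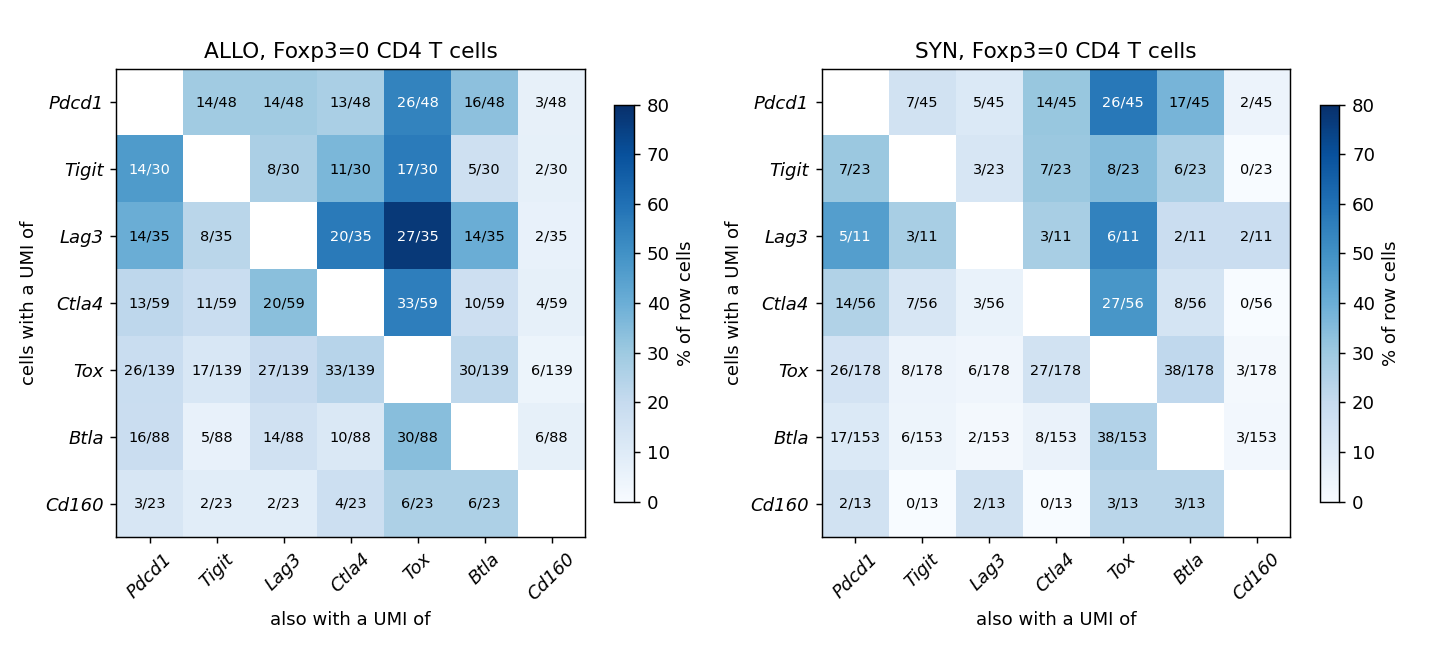
For Foxp3-negative CD4 T cells, the number and percent (colour, 0 to 80%) of cells with a UMI of the row gene that also held the column gene, ALLO left and SYN right. The darkest ALLO cell is Lag3 with Tox, at 27 of 35 cells.

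CD4 T cells with at least 2 members carried genes of follicular helper T cells. The 98 ALLO and 88 SYN cells with at least 2 members were set beside 279 and 474 cells of the same gate with none, and their median depths were 4443.5 and 4500.5 UMIs against 3984 and 4084. Sorting on the members chose these cells, so the values are a description. Of follicular helper genes with at least 20 UMIs, 9 of 9 in ALLO and 8 of 8 in SYN were at least 1.5-fold higher in the cells with members. Over all genes the share was 24.4% of 7315 in ALLO and 21.2% of 7906 in SYN, and 9.19% and 8.96% were at least 1.5-fold lower. With a minimum of 10 UMIs, which was computed first, these were 11 of 11 and 10 of 10 genes, beside 27.1% and 23.9% of all genes (11.2% and 11.4% lower). The minimum of 20 was taken after those counts had been seen, to match the other comparisons.

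Sostdc1, a secreted BMP and WNT antagonist made by follicular helper T cells, had 73 UMIs in the ALLO cells with members and 0 in those without. This is 50.9-fold higher against a floor of 3 counts, with a lower interval bound of 40.3. In SYN these were 27 and 0 UMIs, 41.0-fold higher against the same floor, with a lower bound of 31.1. Cxcr5, the chemokine receptor that leads cells into follicles, was 25.1-fold (7.93 to 127) and 28.1-fold (11.8 to 81.4) higher. Tox2, a relative of Tox, had 28 and 2 UMIs in ALLO, a ratio of 29.3 (7.38 to 254). In SYN it had 29 and 0 UMIs, 44.0-fold higher against the floor, with a lower bound of 33.6. Spp1, which encodes osteopontin, had 45 and 0 UMIs in ALLO and 38 and 0 in SYN. These are 31.4-fold and 57.7-fold higher against the floor, with lower bounds of 24.5 and 44.7. The proliferation gene Mki67 had ratios of 20.7 (11.1 to 42.7) and 24.3 (12.99 to 49.5).

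The 12 genes with the largest lower bounds in both libraries were Sostdc1, Spp1, Mki67, Rgs16, Ube2c, Gpm6b, Cxcr5, Tox2, Tbc1d4, Hist1h1b, Ikzf2 and Nrn1, out of 7556 ranked. Ikzf2 had ratios of 18.6 (9.97 to 38.5) and 10.0 (5.78 to 17.9). Among memory or effector genes 8 of 10 in ALLO and 7 of 9 in SYN were at least 1.5-fold higher, among them Itgb1 at ratios of 5.29 and 4.14. Among regulatory genes these were 5 of 5 and 5 of 5. Igfbp4, Lef1 and Ccr7, genes of naive T cells chosen here after their values were seen, had ratios below 1. Igfbp4 had ratios of 0.133 (0.103 to 0.169) and 0.513 (0.444 to 0.590). Lef1 had ratios of 0.242 and 0.517 and Ccr7 of 0.462 and 0.746, the last under 1.5-fold, and the difference between libraries was not tested. Among signalling partners 6 of 7 and 3 of 7 were higher and 1 of 7 and 0 of 7 lower. Among transcription factor genes 8 of 11 and 5 of 10 were higher and none lower, and among ligand genes 2 of 7 and 3 of 7 were higher and 1 of 7 and 0 of 7 lower. At the minimum of 10 UMIs the transcription factor genes were 9 of 13 and 7 of 12, with 1 lower in ALLO, the ligand genes 3 of 8 and 4 of 8, and the regulatory genes 6 of 6 and 5 of 6, while memory or effector and partner genes had the same counts.

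Cells positive for single members were also read for genes of other states. These sets of cells overlap, and differences between members were not tested. A UMI of Ifng, the interferon gamma gene, was found in 15 of 48 Pdcd1-positive, 12 of 35 Lag3-positive and 17 of 59 Ctla4-positive ALLO cells, against 14 of 279 (5.02%) cells with none of the members. In SYN these were 9 of 45, 3 of 11 and 6 of 56, against 8 of 474 (1.69%). Ikzf2 was found in 28 of 59 Ctla4-positive ALLO cells and 13 of 56 in SYN. Cxcr5 was found in 11 of 30 Tigit-positive ALLO cells and 8 of 23 in SYN, against 3 of 279 and 6 of 474 cells with none.

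In CD8 T cells the 52 and 65 cells with at least 2 members were led by other genes. The genes of the same rule included Cenpf, Fcer1g, S100a4, Nr4a1, Klra7, Xcl1, Cdca3, Ikzf2, Cks1b, Hist1h1b and Sypl. S100a4 had ratios of 4.43 (3.04 to 6.46) and 38.1 (19.2 to 85.8), and Nr4a1, an immediate response gene of antigen receptor signals, of 4.02 (2.26 to 7.11) and 9.57 (3.20 to 34.3). Follicular helper genes were at least 1.5-fold higher for 3 of 5 genes in ALLO and 4 of 5 in SYN, and 1 of 5 in each was lower, Cxcr5 in ALLO and Tnfsf8 in SYN, beside 16.4% of 7312 and 17.5% of 7103 genes (11.9% and 9.14% lower). At a minimum of 10 UMIs these were 3 of 5 and 4 of 6, beside 19.1% and 20.3% of all genes (15.5% and 11.7% lower). Memory or effector genes were higher for 2 of 10 and 7 of 9.

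**Figure D5:**
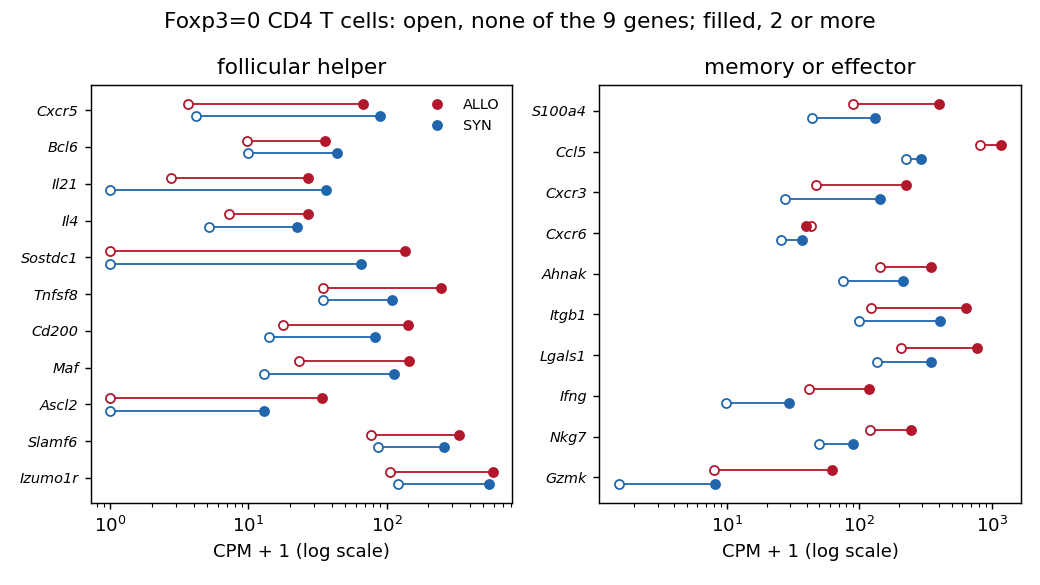
Level (CPM + 1, log axis) of follicular helper and of memory or effector genes in Foxp3-negative CD4 T cells with none (open) and with at least 2 (filled) of the 9 genes, ALLO in red and SYN in blue, 1 library each. Sostdc1 is at 0 UMIs in the cells without members in both libraries, and Cxcr6 in ALLO is the gene whose filled point lies left of the open one.

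The ligands, signalling partners and regulators of these receptors were compared between the libraries in Foxp3-negative CD4 T cells. The background in this gate is the 7.82% of all genes higher and 4.37% lower given above. Among ligand genes 1 of 8 measured was at least 1.5-fold higher in ALLO and none lower, a share near that background. The 1 was Pdcd1lg2, which encodes the PD-1 ligand PD-L2 and had 31 and 23 UMIs, a ratio of 1.95 (1.10 to 3.50). Cd274 (PD-L1) had a ratio of 1.27 (0.822 to 1.95). Among partners 2 of 7 were higher and none lower. Ptpn11, the phosphatase SHP-2 recruited by PD-1, had a ratio of 1.78 (1.45 to 2.18), and the costimulator Icos 1.55 (1.23 to 1.96), while Cd28 had 1.13 (1.00 to 1.27).

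Among 13 transcription factor genes 4 were at least 1.5-fold higher and none lower. Nr4a2 had a ratio of 2.17 (1.44 to 3.28), Prdm1 of 2.36 (1.06 to 5.54), Eomes of 1.77 (0.904 to 3.49) and Tox2 of 1.54 (0.913 to 2.60). Tcf7, which marks naive and stem-like T cells, had a ratio of 0.798 (0.747 to 0.853). In CD8 T cells 3 of 12 were higher, Nr4a1 at 1.82 (1.18 to 2.85), Nr4a2 at 1.66 (1.18 to 2.35) and Prdm1 at 1.80 (0.667 to 5.32), with none lower. There 2 of 9 ligand genes and 1 of 7 partners were lower, beside 4.51% of all genes higher and 6.35% lower.

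Follicular helper genes were at least 1.5-fold higher in ALLO CD4 T cells for 7 of 11, none lower, among them Sostdc1 at 4.12 (2.63 to 6.65), Cd200 at 2.18 (1.62 to 2.93) and Maf at 1.89 (1.45 to 2.46). Bcl6, the factor that defines these cells, had a ratio of 1.04 (0.664 to 1.60), and Cxcr5 1.42 (0.944 to 2.13). Memory or effector genes were higher for 10 of 10, with Gzmk at 8.88 (3.96 to 23.4), Ifng at 4.19 (3.02 to 5.90) and Ccl5 at 3.51 (3.22 to 3.84). Of regulatory genes 4 of 7 were higher, Nrp1 at 2.50 (1.81 to 3.50), Tnfrsf4 at 2.29 (1.68 to 3.16), Ikzf2 at 1.97 (1.53 to 2.54) and Gpr83 at 1.73 (0.918 to 3.31). Il7r, the interleukin 7 receptor gene of naive and memory T cells, was lower at 0.606 (0.559 to 0.655). These lists were read in the same cells as the members and do not stand as independent support.

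The genes with the pattern most like each member were found over the 10 values of 5 gates in 2 libraries, by Pearson's r of log2(CPM + 1) among 10411 genes. The points share libraries and cells, and r is a description. Pdcd1 was most like Izumo1r (r = 0.978), a folate receptor family gene of CD4 T cells, followed by Ext1 and Nrn1. Ctla4 was most like Agfg1 (0.991), H1f0 and Ostc, Tigit like Rac1 (0.990), Ndfip1 and Atp5j2, and Tox like Timp2 (0.995), Slc9a3r1 and Sept9. Lag3 was most like Ubn1 (0.973), Tmem65 and Lxn, and Cd160 like Ifitm10 (0.978), Zyx and Cdca7l. Btla was most like Helz2 (0.975), Etnk1 and Bach2, and Cd244a like Itgam (0.985), Arel1 and Arap2.

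On GRCm38 the members lie on 6 chromosomes. Ctla4 (1:60887000-60915832), Pdcd1 (1:94038305-94052553) and Cd244a (1:171559193-171609746) are on chromosome 1, and Tigit (16:43648867-43664146) and Btla (16:45224315-45257670) are on chromosome 16. Cd160 lies at 3:96798763-96829351, Tox at 4:6686353-6991557, Lag3 at 6:124904361-124911705 and Havcr2 at 11:46454935-46481255. All 9 are protein-coding genes.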

How the data were processed

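Spleen cells were measured in 1 ALLO and 1 SYN library, grouped by the sample titles. The deposited matrices give raw UMI counts, whole numbers with no normalization. Cell Ranger 6.0.2 made them, per the file headers. The submitters' processing notes name FastQC and mm10 beside it. For aligner options and the annotation release, the status is: not given in the sources used here. Cells had been frozen, thawed and passed over a dead cell removal column, per the labels' protocols, which can change the shares of fragile cells. No barcode in the files has under 500 UMIs.

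The 9 members, the gene lists and the gates were chosen with earlier results of these data known. Barcodes with at least 1000 UMIs were gated on raw UMIs. UMIs were summed per gate and library and divided by the gate total to give CPM. Sums have exact Poisson intervals, ratios exact conditional intervals and shares Clopper-Pearson intervals, all at 95%. They were computed in python 3.11.15 with numpy 2.4.6 and scipy 1.17.1 and cover counting error alone. A fold against 0 UMIs used a floor of 3 counts. Genes with at least 20 UMIs over both libraries, or over both sets of cells, were counted as higher or lower at 1.5-fold. Co-detection was also read after thinning each cell to 1000 UMIs. Doublets were kept in the main values. Scrublet in scanpy 1.11.5 marked 196 ALLO (1.97%) and 413 SYN (3.67%) cells, and an alternative left them out. Interval and thinning steps were tested on simulated counts.

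Named genes are the 9 members, the listed ligands, partners, regulators and state genes, the 12 genes with the largest lower bound in cells with at least 2 members against none, and the 3 genes most like each member among genes with at least 50 UMIs. For gene lists in cells with at least 2 members against none, a minimum of 10 UMIs was computed first and 20 was adopted after seeing its counts, and both are given. Examples within a list were chosen after their values were seen. Positions are from the GENCODE annotation of GRCm38 and promoters from RefSeq. Alternatives changed the depth minimum, gates, thinning, doublets, mitochondrial share, shared barcodes, gate totals and gene minimum. Results that need certain genes, among them some gates, lists and named genes, are not reported here.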

Additional observations from a re-analysis of the deposited data

Results flagged for a closer look

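Some members differed between the libraries in opposite directions in 2 cell types, each by at least 1.5-fold. With 1 library per group the difference between cell types was not tested. Pdcd1 had an ALLO to SYN ratio of 2.58 in Foxp3-negative CD4 T cells and 1.67 in Foxp3-positive CD4 T cells, against 0.228 in CD8 T cells. Ctla4 had 2.05 in Foxp3-negative CD4 T cells against 0.570 in CD8 T cells. Lag3 had 5.17 in Foxp3-negative CD4 T cells against 0.225 in B cells. Cd160 had 2.02 in Foxp3-negative CD4 T cells and 1.63 in NK cells, against 0.599 in B cells. The Foxp3-positive value of Pdcd1 has an interval across 1 (0.791 to 3.70) and ran from 1.11 to 9.34 under the alternatives. The CD8 T cell value of Ctla4 (0.311 to 1.02) and the B cell value of Cd160 (0.342 to 1.03) also have intervals across 1. The NK cell value of Cd160 ran from 1.35 to 1.68 under the alternatives. The CD8 T cell value of Pdcd1 rests on 4 and 17 UMIs, and the B cell value of Lag3 on 5 and 20.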

How the results depend on the processing

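No paired analysis was possible because the 2 groups share only 1 replicate number. Of 373 single-gene ratios under alternatives, 363 stayed within the counting interval of the main value, 10 moved outside it and 0 were reversed. A reversal was scored only where the main ratio was past 1.5-fold and the alternative lay on the other side of 1. Smaller ratios could cross 1 unscored, as for Btla in Foxp3-negative CD4 T cells, from 0.810 to 1.12. The count of members at least 1.5-fold higher in Foxp3-positive CD4 T cells was 1 when cells were thinned to 1000 UMIs, with at least 50 UMIs per member and with no Cd4 UMI asked for. In CD8 T cells it was 1 with no minimum. In NK cells it was 0 after thinning and 3 with no minimum. The thinned ratio for at least 2 members in Foxp3-negative CD4 T cells was 4.67 without Btla and Tox. Alternatives without dividing cells, without NK genes, without Cd79b or Ms4a1, with other thinning draws and with a minimum of 10 UMIs for the gene lists were added after seeing the data. For the lists, the minimum of 10 was in fact used first and replaced by 20. It changed the count of lower regulators in ALLO CD4 T cells from 0 to 1 (Prdm1, 3 and 13 UMIs). At least 3 thinned members gave no ratio, with 11 and 0 CD4 T cells and 0 and 0 CD8 T cells. The cause of these shifts was not tested. Genes under 20 UMIs are limited by depth.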
